A study of Mus musculus with 10 samples.

Results

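The genes described here encode the collagen and laminin chains, the main structural proteins of the extracellular matrix. They were chosen by name, as the protein-coding genes whose symbol is Col, a number, the letter a and a number, or Lama, Lamb or Lamc with a number. The rule gave 55 of the 18216 genes in the table, 44 collagen chains and 11 laminin chains, and these are all the genes of the GENCODE M21 annotation that fit it. The chains were separated into 11 fibrillar collagens, 19 basement membrane chains (types IV, XV and XVIII collagen and the laminins) and 25 other collagens. Of the 55, 54 had a mean of at least 10 and were tested. Col10a1, a short-chain collagen of growth plate cartilage, lay between 1.84 and 12.9 in the 10 mice and was not tested.

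RNA sequencing of the prefrontal cortex was used to compare 5 Arid1b+/- mice (heterozygous, HT1 to HT5) with 5 wild-type mice (WT1 to WT5) at postnatal day 10. All were males of the C57BL/6N strain, with 1 library for each mouse. The HT mice carried 1 truncated copy of Arid1b, made with a Cas9 nickase that deleted exon 5 and left an inserted TT, and were bred from heterozygous fathers and wild-type mothers. The mutation is in every cell of the body and not in 1 cell type. Arid1b encodes a DNA-binding subunit of the BAF chromatin-remodelling complex. Values are normalised counts, the read estimates that the authors had divided by size factors, and the sequencing depth behind them is unknown.

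Collagen chains wind together into a triple helix, for which each chain repeats the triplet Gly-X-Y, glycine followed by any pair of residues. Fibrillar chains form long ropes, type IV chains form the net of basement membranes, and laminins, built as crosses of an alpha, a beta and a gamma chain, form the sheet on which cells sit. In the cortex these proteins lie mainly in the pia and in the walls of blood vessels, and they come chiefly from fibroblasts, endothelial cells, pericytes and astrocytes, while some of the other collagens are made by neurons.

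The coding sequences show how the classes differ. In the longest coding transcript of each gene, the longest unbroken run of Gly-X-Y triplets was 216 to 344 triplets in the 11 fibrillar collagens, 30 to 66 in the 8 basement membrane collagens and 23 to 113 in the 25 other collagens. The 11 laminins had runs of 2 or 3 at most. Exons of exactly 54 bases, the length of 6 triplets, numbered 21 to 33 in a fibrillar gene, 1 to 3 in a basement membrane collagen gene, 0 to 28 in the other collagens and 0 in the laminins. Each type IV chain had 22 to 27 separate runs of at least 6 triplets, where fibrillar chains had 2 or 3. Single coding exons of 6 collagens are printed below from the GRCm38 genome on the coding strand, 5′ to 3′. They show how glycine codons are spaced in chains that the results turn on. Capitals mark in-frame glycine codons. The fibrillar exons are chr11:94939904-94939957 on the plus strand and chr1:45325360-45325413 on the plus strand. The Col4a1 exon, chr8:11267597-11267656 on the minus strand, is coding exon 2, near the start of the chain. It is rich in glycine codons but not made of regular triplets throughout. No break between the runs of a type IV chain is printed. The others are Col6a1 chr10:76719623-76719676 on the minus strand, Col7a1 chr9:108962985-108963011 on the plus strand and Col26a1 chr5:136754915-136755013 on the minus strand.
Col1a1: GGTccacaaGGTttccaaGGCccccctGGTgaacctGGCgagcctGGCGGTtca
Col3a1: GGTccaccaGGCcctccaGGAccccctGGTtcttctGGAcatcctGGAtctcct
Col4a1: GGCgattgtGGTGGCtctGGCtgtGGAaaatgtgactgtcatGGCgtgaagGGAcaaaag
Col6a1: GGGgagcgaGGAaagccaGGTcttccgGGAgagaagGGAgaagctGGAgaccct
Col7a1: GGCcagaagGGGgagcctGGAgtaacg
Col26a1: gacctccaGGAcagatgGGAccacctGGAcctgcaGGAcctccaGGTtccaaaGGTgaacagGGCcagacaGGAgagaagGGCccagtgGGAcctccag
The Col3a1 and Col6a1 exons have a glycine codon at 1 codon in 3 over all 18 codons, and the Col1a1 exon has 1 glycine codon more. In the Col4a1 exon glycine codons are unevenly spaced, and at most 3 of its 7 keep the step of 1 codon in 3. This exon was not shown to be a break inside the helix. Col26a1 had the shortest run of all collagens, 23 triplets in a chain of 440 codons.

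**Figure D1:**
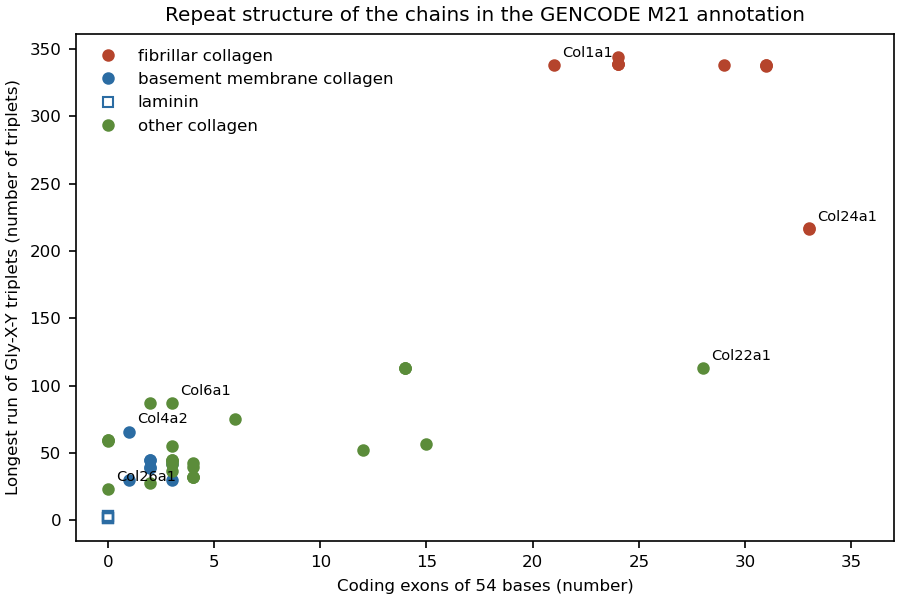
Number of 54-base coding exons (x axis) against the longest run of Gly-X-Y triplets (y axis) for each of the 55 chains, 1 point per gene, coloured by class, with laminins as open squares. The 11 fibrillar collagens lie at 216 triplets or more, every other collagen at 113 or fewer, and the laminins at 2 or 3.

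Before the chains were compared, the mice were checked. Arid1b was 1894 ± 86.6 (SD, n = 5) in HT mice against 2842 ± 142 (SD, n = 5) in WT mice, 66.6% of the WT mean, with no overlap between the groups (log2 fold change -0.59, SE 0.048, limma adjusted p = 0.0001). Of the 12 markers of cortical projection neurons, Slc17a7, a glutamate transporter, was at least 37828 and Neurod6, a transcription factor of these neurons, at least 3047 in every mouse, as the tissue label says. HT2 stood apart: it held the highest value for 21 of the 54 tested chains (38.9%) and for 17.1% of all genes, and mitochondrial transcripts made up 8.43% of its normalised counts against 5.15% to 6.76% in the other mice. HT5 was highest for 10 chains and WT4 for 7, and HT1 for 0. The sum of the 12 projection neuron markers was lowest in HT2 (58751) and then in WT4 (66102), against 70424 to 79009 in the other 8 mice. It ran opposite to the chains in HT2 and WT4 but not in HT5. There it was 73589, near the WT mean of 73821, while the summed chains (45213) were the highest after HT2. Of these 12 markers 0 were higher and 2 lower in HT at an unadjusted p under 0.05, against 4.71% and 4.52% of all genes. The part of these differences in the levels of the chains was not tested. In bulk tissue, fewer cells of a type and less RNA per cell cannot be told apart.

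The most abundant chains were Col4a1 and Col4a2 of type IV collagen. Per kilobase of exon, Col4a1 had a normalised count of 811 and Col4a2 737, followed by Col6a1 at 614, Lamc1 at 315 and Col9a3 at 278. The first 4 of these made up 43.5% of the summed level per kilobase of the 55 chains. By class, basement membrane chains gave 48.0% of that sum, other collagens 34.8% and fibrillar collagens 17.1%. At the low end of the tested chains, Col2a1, the main collagen of cartilage, had 3.81 per kilobase, Col4a3 3.94 and Col17a1, a hemidesmosome collagen of skin, 4.54. Levels per kilobase spanned more than 2 orders of magnitude within each of the basement membrane and other classes. The length used is that of all annotated exons of a gene, which can exceed that of its RNA. Col6a1 has 4380 such bases for 1025 codons, and Col6a2 8326 for 1034. Ranks and shares between genes thus depend in part on the annotation.

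**Figure D2:**
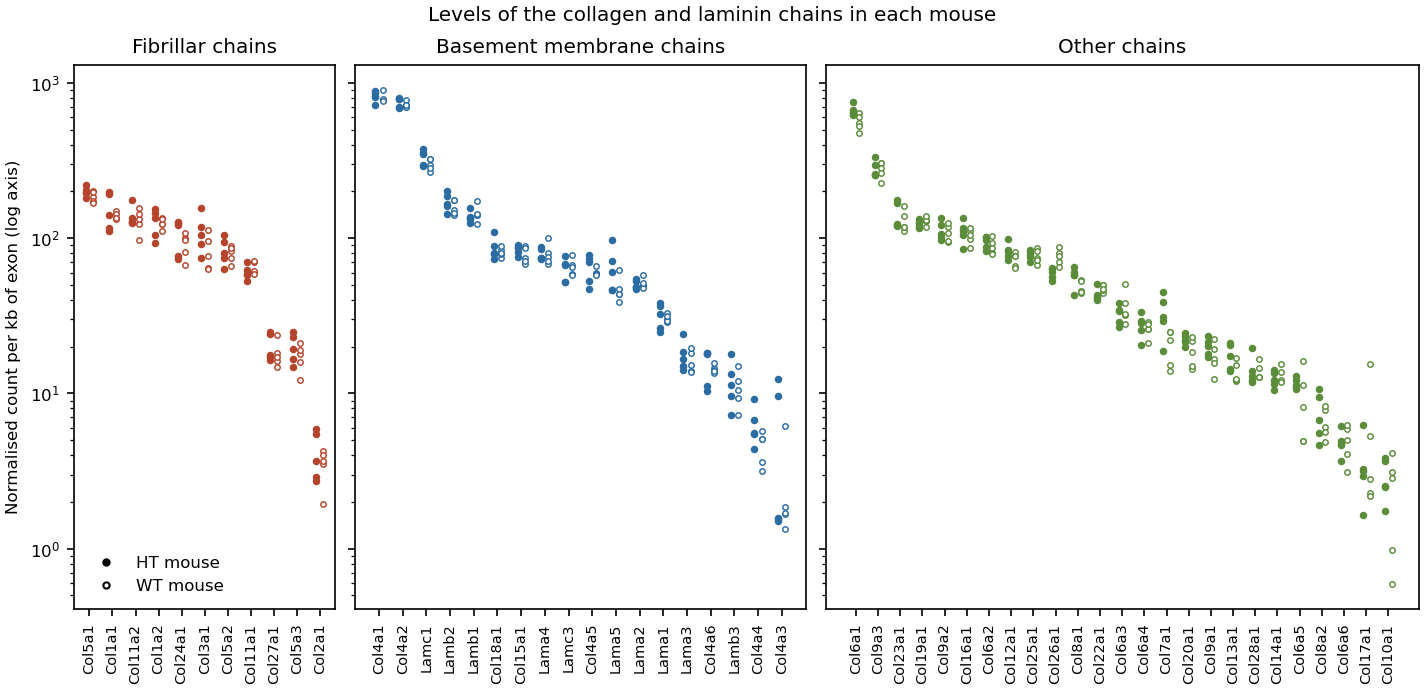
Normalised count per kilobase of exon (log axis) of each chain reported here in each mouse, by class and ordered by mean level, with HT mice as filled and WT mice as open points. Col4a1 and Col4a2 lead the basement membrane chains and Col6a1 the other collagens, and the genotypes overlap for every chain but Col26a1.

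No chain passed the threshold between the genotypes after adjustment over all genes. Of the 54 chains, 0 had a limma adjusted p under 0.05, where 0.0179% of the 16781 genes tested did, and the smallest adjusted p was 0.36. At an unadjusted p under 0.05, 3 chains were higher in HT mice (Col6a1, Col7a1 and Lama5), 5.56% of the 54 against 4.71% of all genes, and 1 was lower (Col26a1), 1.85% against 4.52% of all genes. For 1 chain, Col26a1, the 5 HT values all lay below the 5 WT values, and 0.918% of all genes had such a gap. The opposite gap, with the HT mice all higher, occurred for 0 chains and for 0.703% of all genes. Leaving out HT1 or HT3 raised the number at an unadjusted p under 0.05 from 4 to 8, of which 7 were higher in HT. The share of all genes at that level rose from 9.23% to 10.6% and 10.9%, with 5.49% and 5.60% higher in HT. Leaving out WT1, WT3 or WT4 raised the number higher in HT to 5, where the shares of all genes higher in HT were 4.56%, 3.37% and 5.76%. Without HT5, 2 chains were lower, and 3.21% of all genes.

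Small differences in the same direction were common. The log2 fold change was above 0, that is, higher in HT, for 43 of the 54 chains (79.6%), against 48.8% of all genes. The count was 29 of 54 without HT2, 38 without HT5, 44 without WT4, and 31 with these 3 mice left out together, a choice made after the values were seen. By class it was 9 of 11 fibrillar, 16 of 19 basement membrane and 18 of 24 other chains. Without HT2 the class counts were 6, 10 and 13, and with the 3 mice left out they were 6, 9 and 16. The median log2 fold change was 0.11 for fibrillar, 0.075 for basement membrane and 0.082 for other chains, beside -0.0035 for all genes. Without HT2 these medians were 0.068, 0.0019 and 0.027, and without HT1 they were 0.19, 0.14 and 0.098. They were 0.085, 0.052 and 0.061 without HT5 and 0.15, 0.10 and 0.12 without WT4, and without HT4 the basement membrane median was 0.044. With HT2, HT5 and WT4 left out together they were 0.035, -0.0019 and 0.027. The chains share mice and cell sources, so they are not separate tests of the genotype.

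**Figure D3:**
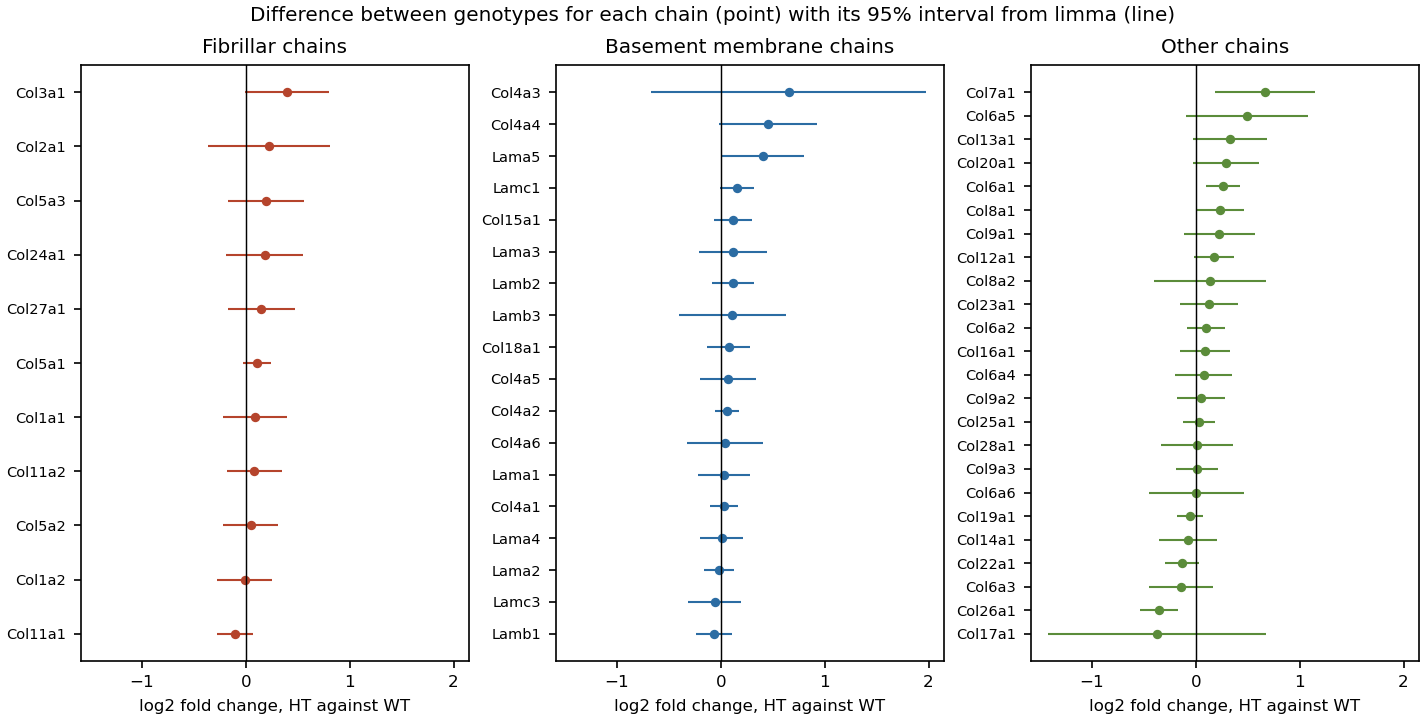
Log2 fold change of HT against WT (x axis) for each tested chain reported here, by class, as a point with its 95% interval from limma (line), ordered by size. The interval leaves out 0 for Col7a1, Col6a1, Lama5 and Col26a1, and for no fibrillar chain.

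The fibrillar chains were headed by Col5a1, which sets the width of collagen fibrils. Its values were 1743, 1872, 1682, 1546 and 1660 in HT1 to HT5 and 1573, 1717, 1477, 1686 and 1438 in WT1 to WT5. The highest mouse was HT2 and the lowest WT5, and the groups overlapped (log2 fold change 0.11, SE 0.064, limma adjusted p = 0.59). Col1a1, a chain of the main collagen of bone, skin and vessel walls, had 728, 1258, 762, 929 and 1301 in HT1 to HT5 and 976, 871, 884, 939.6 and 879 in WT1 to WT5. HT2 and HT5 were the highest and HT1 and HT3 the lowest of all mice, so the HT mice spread on both sides of the WT mice (log2 fold change 0.089, SE 0.14, limma adjusted p = 0.85). Its partner Col1a2, which joins 2 Col1a1 chains in a helix, had 1294, 1806, 1154, 1686 and 1917 in HT1 to HT5 and 1528, 1384, 1525, 1685 and 1663 in WT1 to WT5, again with HT5 and HT2 at the top and HT3 at the bottom. The per-kilobase ratio of Col1a1 to Col1a2 stayed between 1.00 and 1.32 in the 10 mice, although the genes lie on different chromosomes. In counts Col1a2 was the higher, with a mean of 1564 against 953, over 12426 against 6563 bases of annotated exon. The size of this ratio thus depends on the annotated lengths.

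Col3a1, a fibrillar chain of vessel walls and pia and a ligand of the receptor GPR56 in the cortex (ENSMUSG00000026043, chr1:45311538-45349706, plus strand), had the smallest p of its class. Its normalised counts were 903, 1166, 731, 1526 and 1032 in HT1 to HT5 and 937, 630.4, 623, 1106 and 756 in WT1 to WT5. HT4 was highest and 4 of 5 HT mice were above the WT mean, but WT1, WT4 and WT5 lay within the HT range (1072 ± 301 (SD, n = 5) in HT mice against 810.3 ± 209 (SD, n = 5) in WT mice, log2 fold change 0.40, SE 0.19, limma adjusted p = 0.55). Leaving out HT4 lowered the log2 fold change to 0.26, and leaving out HT3 raised it to 0.52. Col5a2, whose gene lies 24.6 kb from that of Col3a1 on chromosome 1 in the opposite orientation, had a log2 fold change of 0.046 (SE 0.12), with 710.4, 901, 607, 767 and 1001 in HT1 to HT5 and 719.6, 631, 789, 857 and 828 in WT1 to WT5. The per-kilobase ratio of Col3a1 to Col5a2 ran from 0.77 to 1.94.

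Both type XI chains, known from cartilage, were present. Col11a2 had 855, 1206, 869.9, 876 and 929.8 in HT1 to HT5 and 847, 918, 666, 1078 and 985 in WT1 to WT5, with HT2 far above the other HT mice and WT3 the lowest. Col11a1 was 1 of the 2 fibrillar chains with a log2 fold change below 0 (-0.10, SE 0.08), with 792, 891, 733, 673 and 747 in HT1 to HT5 and 899.6, 777, 783, 904 and 752 in WT1 to WT5. Its log2 fold change was -0.16 without HT2 and -0.058 without HT4. The remaining fibrillar chains (Col2a1, Col5a3, Col24a1 and Col27a1) had log2 fold changes of 0.15 to 0.23, each with an interval that holds 0. Of the 12 genes of the cartilage and bone marker list, 4 were not analysed here. The summed level of the other 8 was 472 to 671 in HT and 379 to 529 in WT. It was 19.6% higher in HT on average, with all 5 HT mice above the WT mean. All 7 tested markers of the list had a log2 fold change above 0 (median 0.33), against 48.8% of all genes. At an unadjusted p under 0.05, 1 was higher in HT, against 4.71% of all genes. Whether these markers came from such tissue, and their part in the levels of these chains, was not tested.

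Among basement membrane chains, the genes of the type IV pair Col4a1 (ENSMUSG00000031502, chr8:11198423-11312826, minus strand) and Col4a2 (ENSMUSG00000031503, chr8:11312805-11449287, plus strand) are transcribed away from each other from starts 21 bases apart, and the annotated genes overlap by 22 bases. Both 300-base RefSeq promoter windows, from 250 bases before to 50 after each start, are printed below from GRCm38.p6, each 5′ to 3′ on its own gene's strand. They are shown because, of the 6 chain pairs compared, this is the one whose ratio of levels varied least. The Col4a1 window is chr8:11312777-11313076 on the minus strand and the Col4a2 window chr8:11312555-11312854 on the plus strand. Capitals mark the 78 bases that the windows share, on opposite strands.
Col4a1: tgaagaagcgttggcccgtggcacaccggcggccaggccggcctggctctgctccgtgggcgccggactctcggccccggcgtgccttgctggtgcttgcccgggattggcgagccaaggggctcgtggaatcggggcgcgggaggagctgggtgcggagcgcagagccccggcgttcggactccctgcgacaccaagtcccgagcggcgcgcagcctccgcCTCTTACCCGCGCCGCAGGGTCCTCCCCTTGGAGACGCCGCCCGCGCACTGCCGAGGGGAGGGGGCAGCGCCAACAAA
Col4a2: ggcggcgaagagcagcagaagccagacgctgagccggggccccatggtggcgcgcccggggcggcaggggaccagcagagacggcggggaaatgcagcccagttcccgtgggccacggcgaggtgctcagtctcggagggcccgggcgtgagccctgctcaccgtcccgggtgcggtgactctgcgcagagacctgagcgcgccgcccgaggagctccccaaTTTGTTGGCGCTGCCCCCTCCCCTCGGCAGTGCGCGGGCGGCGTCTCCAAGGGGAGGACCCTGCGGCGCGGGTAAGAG
Searched on both strands, the Col4a1 window held CCAAT 1 time, GGGCGG 1 time and TATAAA 0 times, and the Col4a2 window held them 1, 3 and 0 times. Windows were found in RefSeq for 40 of the 55 chains. CCAAT occurred in 35% of these 40 and in 41.1% of the windows of 27025 genes, GGGCGG in 62.5% against 38.2%, and TATAAA in 12.5% against 15.7%. Unlike the chains, the 27025 genes were not limited to protein-coding ones, so these shares compare unlike sets. None of the 12 basement membrane windows held TATAAA. These are matches of letters in a window and not sites shown to be used.

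The values of the pair moved little between mice. Col4a1 had 6144, 6664, 5372, 6403 and 6040 in HT1 to HT5 and 6721, 5791, 5799, 5866 and 5724 in WT1 to WT5, and Col4a2 had 4581, 5321, 4600, 5192 and 5214 in HT1 to HT5 and 5115, 4735, 4633, 4621 and 4758 in WT1 to WT5. WT1 was the highest WT mouse for both, and HT2 the highest HT mouse. The ratio of Col4a1 to Col4a2 per kilobase was 1.19, 1.11, 1.04, 1.09 and 1.03 in HT1 to HT5 and 1.17, 1.08, 1.11, 1.13 and 1.07 in WT1 to WT5, with Col4a1 the higher of the pair in every mouse. The difference between genotypes was a log2 fold change of 0.033 for Col4a1 (95% interval -0.10 to 0.17) and 0.06 for Col4a2 (95% interval -0.054 to 0.17).

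The other type IV chains, best known from the basement membranes of kidney and ear, were much lower. Col4a5 and Col4a6, whose starts are 1309 bases apart on chromosome X, had a per-kilobase ratio of 3.88 to 4.74. Col4a5 had 355, 523, 314, 471 and 496 in HT1 to HT5 and 398, 395, 396, 445 and 387 in WT1 to WT5, and the HT mice reached both above and below the WT mice. Col4a6 had 88.9, 146, 83.1, 144 and 145 in HT1 to HT5 and 116, 113, 108, 125 and 112 in WT1 to WT5, and its 3 highest mice were the same HT2, HT5 and HT4. The last pair, Col4a3 and Col4a4, whose starts are 72 bases apart on chromosome 1, did not keep a steady ratio (0.17 to 1.85). Col4a3 had 15.5, 95.7, 15.7, 124 and 15.1 in HT1 to HT5 and 16.7, 61.6, 13.4, 18.5 and 17 in WT1 to WT5. HT2, HT4 and WT2 lay far above the other 7 mice, which were between 13.4 and 18.5, and the difference between genotypes was wide in its error (log2 fold change 0.65, 95% interval -0.67 to 1.98). Col4a4 did not share this split, with 46.8, 58, 59.2, 71.2 and 97.2 in HT1 to HT5 and 53.7, 60.7, 38.5, 54 and 33.4 in WT1 to WT5 (log2 fold change 0.45, SE 0.22, limma adjusted p = 0.55). Leaving out HT5, its highest mouse, changed the Col4a4 log2 fold change to 0.30.

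**Figure D4:**
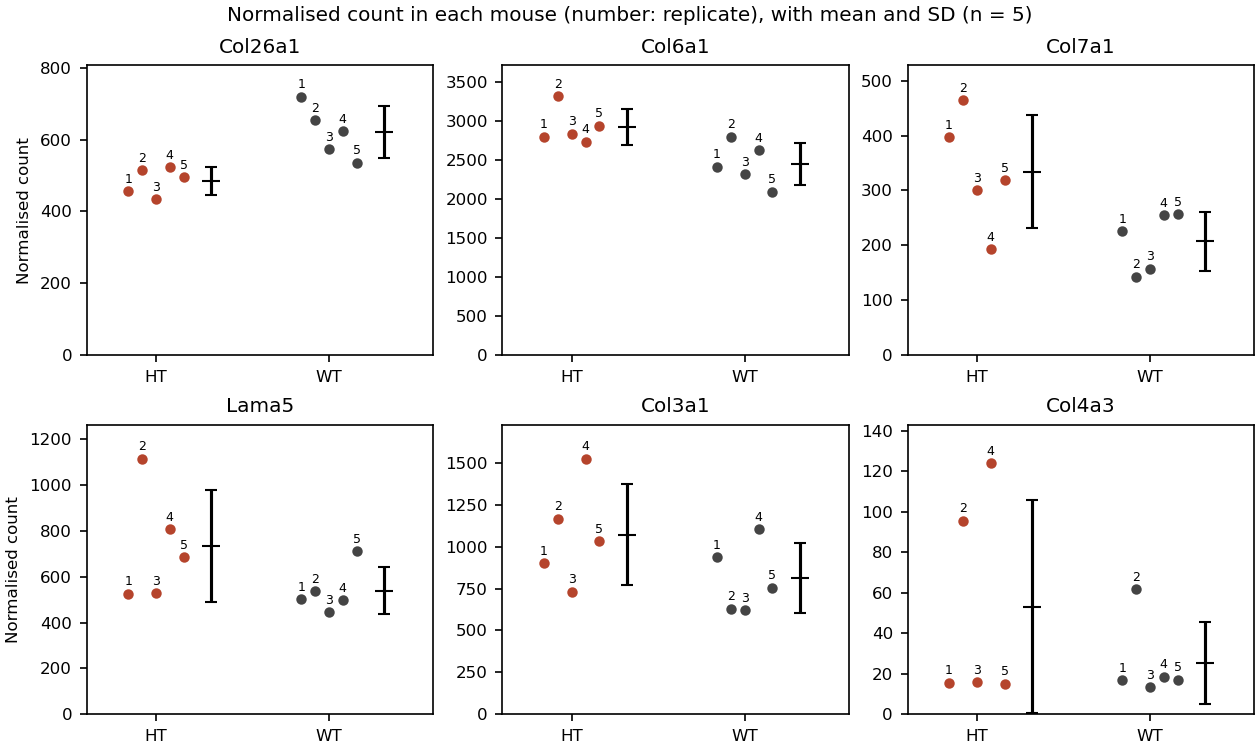
Normalised count in each mouse for 6 chains (y axes from 0), with the replicate number beside each point and the mean and SD of each group (n = 5). Col26a1 shows no overlap between groups, Col6a1, Col7a1, Lama5 and Col3a1 overlap, and Col4a3 is high in HT2, HT4 and WT2 alone.

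Laminins were led by the gamma chain Lamc1, which is shared by most laminin trimers. Summed per kilobase, the gamma chains reached 388, the beta chains 317 and the alpha chains 234. Lamc1 had 2443, 3088, 2404, 2895 and 2923 in HT1 to HT5 and 2658, 2437, 2220, 2659 and 2338 in WT1 to WT5, with HT2, HT5 and HT4 the highest mice and WT3 the lowest (log2 fold change 0.16, SE 0.077, limma adjusted p = 0.55). Lamb2, the beta chain most abundant per kilobase, had 877, 1130, 1002, 984 and 1233 in HT1 to HT5 and 1071, 927, 856, 1079 and 884 in WT1 to WT5, with overlapping groups (0.11 log2 fold change, SE 0.094). Lamb1 had the higher mean count, 1396 against 1004, over 9917 against 6082 bases of annotated exon. Lama4, an alpha chain of vessel walls and the highest alpha chain, had 901, 1034, 893, 1055 and 885 in HT1 to HT5 and 963, 906, 824, 1216 and 863 in WT1 to WT5, and the group means were almost equal (0.0086 log2 fold change, 95% interval -0.20 to 0.21).

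Lama5, the alpha chain of laminin-511 in mature vessel basement membranes (ENSMUSG00000015647, chr2:180176373-180225859, minus strand), was the laminin with the smallest p. Its values were 527, 1116, 529, 807 and 685 in HT1 to HT5 and 501, 536, 445, 496 and 712 in WT1 to WT5. HT2 and HT4 were above every WT mouse, whereas HT1 and HT3 lay among the WT mice. The means were 733 ± 244 (SD, n = 5) in HT mice against 538 ± 102 (SD, n = 5) in WT mice (log2 fold change 0.40, SE 0.18, limma adjusted p = 0.53, unadjusted p = 0.047). Without HT2 the log2 fold change was 0.24, and with HT2, HT5 and WT4 left out it was 0.17. The unadjusted p stayed under 0.05 in 10 of 20 alternatives.

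The remaining basement membrane chains reported here had log2 fold changes between -0.066 (Lamb1) and 0.12 (Col15a1), and none had an unadjusted p under 0.05. Lama3 and Lamb3, best known from epithelia, were among the low ones, at 16.9 and 11.3 per kilobase. Col15a1 and Col18a1, the latter the source of endostatin, had 81.1 and 83.9 per kilobase. Across the 19 basement membrane chains, the median coefficient of variation over the 10 mice was 13.3%, against 19.5% for fibrillar chains, 16.3% for other chains and 10.2% for all genes.

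Of the other collagens, Col6a1 (ENSMUSG00000001119, chr10:76708792-76726168, minus strand), a chain of the beaded filaments that lie beside basement membranes, was the most abundant and had one of the smallest p-values. Its normalised counts were 2802, 3321, 2841, 2737 and 2943 in HT1 to HT5 and 2420, 2801, 2320, 2634 and 2095 in WT1 to WT5. All 5 HT mice were above the WT mean, but WT2 reached the HT range. The means were 2929 ± 232 (SD, n = 5) in HT mice against 2454 ± 274 (SD, n = 5) in WT mice, 19.3% higher in HT (log2 fold change 0.26, SE 0.076, limma adjusted p = 0.44, unadjusted p = 0.0042). The log2 fold change stayed between 0.20 and 0.31 in 20 alternatives, with an unadjusted p under 0.05 and an adjusted p of 0.34 or more in each. Col6a2, which pairs with Col6a1 in the type VI helix and lies 85.2 kb away on chromosome 10, had 693, 843, 734, 809 and 849 in HT1 to HT5 and 779, 718, 667, 855 and 654 in WT1 to WT5 (log2 fold change 0.10, SE 0.083, limma adjusted p = 0.7). The per-kilobase ratio of Col6a1 to Col6a2 was 7.68, 7.49, 7.36, 6.43 and 6.59 in HT mice and 5.91, 7.42, 6.62, 5.86 and 6.09 in WT mice. These ratios rest on 4380 bases of annotated exon for Col6a1 and 8326 for Col6a2, and the mean counts were 2691 and 760. Col6a3, the largest type VI chain, had a log2 fold change of -0.14 (SE 0.14), with an interval that holds 0.

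Col26a1 (ENSMUSG00000004415, chr5:136741759-136883209, minus strand), a short collagen with an EMI domain, was the chain with the smallest p and the clearest separation. Its values were 457, 515, 435, 524 and 495 in HT1 to HT5 and 720.1, 655, 575, 623 and 536 in WT1 to WT5. The highest HT mouse, HT4, lay just under the lowest WT mouse, WT5. The means were 485 ± 38.1 (SD, n = 5) in HT mice against 622 ± 71.4 (SD, n = 5) in WT mice (log2 fold change -0.35, SE 0.085, limma adjusted p = 0.36, unadjusted p = 0.001), with all 5 HT mice under the WT mean. Across 20 alternatives the log2 fold change stayed between -0.41 and -0.30, with an unadjusted p under 0.05 in each and an adjusted p between 0.31 and 0.65.

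Col7a1 (ENSMUSG00000025650, chr9:108953586-108984875, plus strand), the chain of the anchoring fibrils of skin, showed the largest log2 fold change of the tested chains. It had 397, 464, 300.4, 193 and 318 in HT1 to HT5 and 226, 143, 157, 255 and 256 in WT1 to WT5. HT1, HT2, HT3 and HT5 were above every WT mouse, and HT4 lay below the WT mean. The means were 335 ± 103 (SD, n = 5) in HT mice against 207 ± 54.1 (SD, n = 5) in WT mice (log2 fold change 0.67, SE 0.22, limma adjusted p = 0.48, unadjusted p = 0.01). Without HT2 the log2 fold change was 0.54, and without HT4 it was 0.85, and the unadjusted p stayed under 0.05 in all 20 alternatives.

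Col9a3, a fibril-associated chain known from cartilage, came next to Col6a1 among the other collagens per kilobase. It had 979, 1282, 978, 1133 and 998 in HT1 to HT5 and 1174, 1183, 878, 1094 and 1013 in WT1 to WT5 (0.0078 log2 fold change, 95% interval -0.19 to 0.21). Col23a1, a transmembrane collagen, had 709, 1009, 682, 696 and 971 in HT1 to HT5 and 642, 678, 793, 918 and 673 in WT1 to WT5, with HT2, HT5 and WT4 the highest mice (0.13 log2 fold change, SE 0.13). Col19a1 and Col25a1, which neurons are known to make, varied least among the other collagens, with coefficients of variation of 5.57% and 7.95%, and they were named after their values were seen. Their log2 fold changes were -0.052 (95% interval -0.18 to 0.072) and 0.027 (95% interval -0.13 to 0.18). Col8a1, a short-chain collagen of vessel walls named after its values were seen, had 456, 335, 513, 473 and 455 in HT1 to HT5 and 357, 346, 420.0, 352 and 415 in WT1 to WT5. HT1, HT3, HT4 and HT5 lay above every WT mouse and HT2 below every one (log2 fold change 0.23, SE 0.11, limma adjusted p = 0.54, unadjusted p = 0.0503), and the unadjusted p was under 0.05 in 8 of 20 alternatives. The tested other chains not described so far ranged from a log2 fold change of -0.37 (Col17a1) to 0.49 (Col6a5), and each of their intervals holds 0.

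Cell type markers that moved with the chains were read beside them. The summed fibrillar chains had 7958, 10594, 7868, 9386 and 9604 in HT1 to HT5 and 8541, 8055, 7729, 9544 and 8214 in WT1 to WT5, and the summed basement membrane chains 20203, 23855, 19344, 22500 and 22190 and 21837, 20467, 19800, 20897 and 19976. HT2, HT4 and HT5 were the 3 highest mice for basement membrane chains, and also for the 16 endothelial, the 16 pericyte and smooth muscle and the 12 astrocyte markers. The same 3 mice were highest for the summed mitochondrial transcripts, so this order is not particular to markers of these cell types. The summed endothelial markers ranged over 14273 to 19110 in HT and 13882 to 15702 in WT, and the pericyte and smooth muscle markers over 12981 to 17083 in HT and 12824 to 14369 in WT. Fibroblast markers (18 of 18 analysed) ranged over 12654 to 16842 in HT and 14410 to 15696 in WT, with HT5, HT2 and HT4 highest and HT1 and HT3 lowest.

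Astrocyte markers ranged over 171145 to 215676 in HT and 155056 to 182512 in WT, and 8 of 12 were higher in HT mice at an unadjusted p under 0.05, against 4.71% of all genes. Microglial markers (4 of 12 at that level) ranged over 12750 to 17934 in HT and 12490 to 14363 in WT. For the endothelial list 1 of 16, for the pericyte list 4 of 16 and for the fibroblast list 2 of 18 were higher, and none lower, where 4.52% of all genes were lower. The median log2 fold change was -0.006 for fibroblast markers (9 of 18 above 0), 0.092 for endothelial (13 of 16), 0.13 for pericyte and smooth muscle (15 of 16), 0.23 for astrocyte (12 of 12) and 0.17 for microglial markers (12 of 12), where 48.8% of all genes were above 0. Striatal markers differed up to 2.77 times between mice, with the lowest sums in WT3, WT5 and HT5, and their median log2 fold change was 0.43 (14 of 15 above 0). Of 10 choroid plexus genes 5 were analysed here, and their sum was 131 to 172 in HT and 114 to 154 in WT. No marker that was analysed was at 0 in all mice. The part of these cell types in the levels of the chains was not tested.

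**Figure D5:**
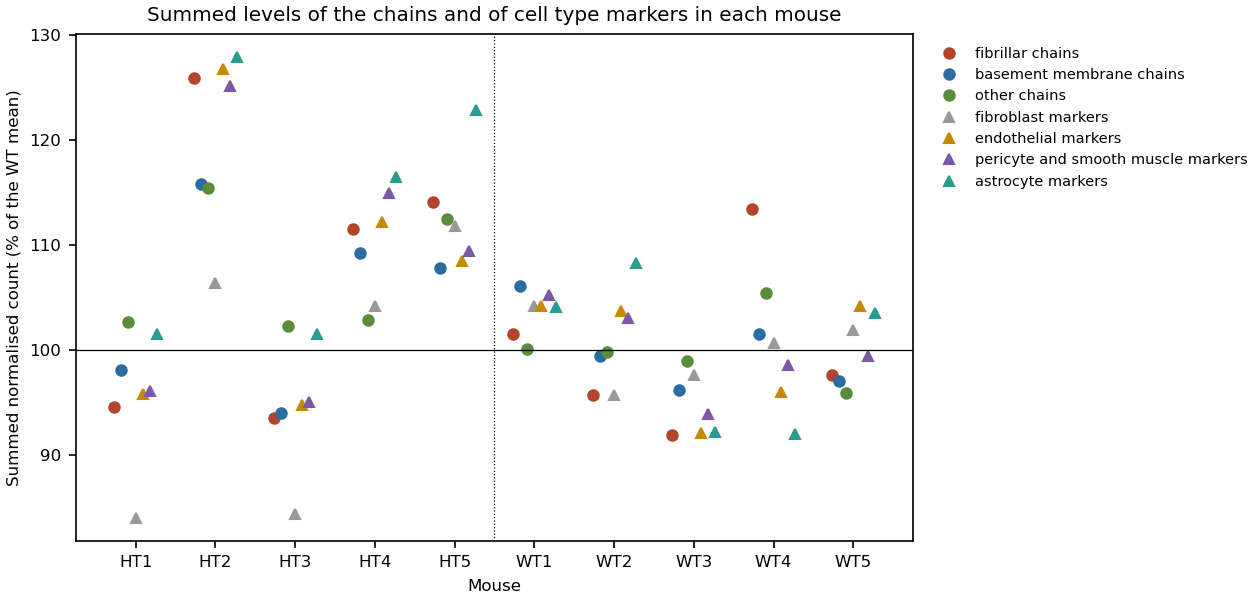
Summed normalised count as a percentage of the WT mean (y axis) in each mouse (x axis), for the 3 classes of chains (circles) and for 4 lists of cell type markers (triangles), each point 1 mouse. HT2, HT4 and HT5 lie above 100% for all 7 sums, whereas HT1 and HT3 lie below it for fibrillar and basement membrane chains, fibroblast, endothelial and pericyte markers.

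Genes that make, bind and cut the chains were read from lists, whose counts stand beside 4.71% of all genes higher and 4.52% lower in HT at an unadjusted p under 0.05. Of 31 tested genes of chain synthesis and processing, 2 were higher and 1 lower in HT at an unadjusted p under 0.05, and the median log2 fold change was 0.066. Plod1, which hydroxylates lysines of collagen, had 765, 901, 747, 838 and 871 in HT1 to HT5 and 753, 752, 619, 635 and 696 in WT1 to WT5 (log2 fold change 0.26, SE 0.075, limma adjusted p = 0.45), with every HT mouse but HT3 above all WT mice. Plod3, a related enzyme, was 881 ± 95.6 (SD, n = 5) in HT mice against 1000 ± 68.9 (SD, n = 5) in WT mice (log2 fold change -0.19, SE 0.075, limma adjusted p = 0.51), the opposite direction. Sparc, which binds collagen, was 12587 ± 1602 (SD, n = 5) in HT mice against 11042 ± 762 (SD, n = 5) in WT mice (log2 fold change 0.18, SE 0.078, limma adjusted p = 0.51), with HT2 the highest mouse.

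Of the 16 basement membrane partners 0 had an unadjusted p under 0.05, and the median log2 fold change was 0.047. The smallest p-values were those of Fras1 (-0.13, SE 0.06) and Frem2 (0.18, SE 0.14), both of the Fraser complex that holds epithelia to their basement membrane, and Hspg2, which encodes perlecan (0.12, SE 0.12). Of the 20 fibril partners 3 were higher and 1 lower. Periostin, Postn, had 595, 615, 562, 570.2 and 638 in HT1 to HT5 and 478, 445, 582, 406 and 584 in WT1 to WT5 (log2 fold change 0.27, SE 0.10, limma adjusted p = 0.49). Thrombospondin 1, Thbs1, was 157 ± 34.9 (SD, n = 5) in HT mice against 206 ± 30.1 (SD, n = 5) in WT mice (log2 fold change -0.41, SE 0.15, limma adjusted p = 0.49), and elastin, Eln, 2380 ± 369 (SD, n = 5) in HT mice against 1892 ± 516 (SD, n = 5) in WT mice (log2 fold change 0.36, SE 0.15, limma adjusted p = 0.51).

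Of 16 tested receptors 1 was higher in HT. This was the collagen receptor kinase Ddr1, with 1606, 1610, 1608, 1463 and 1725 in HT1 to HT5 and 1512, 1544, 1185, 1497 and 1214 in WT1 to WT5 (log2 fold change 0.21, SE 0.08, limma adjusted p = 0.49). The laminin-binding integrin chains Itgb4 (0.33, SE 0.16) and Itga3 (-0.15, SE 0.076) had an unadjusted p of 0.056 and 0.07. Of 18 tested proteases and inhibitors 0 were higher and 2 were lower. Mmp23, a membrane-bound metalloprotease at a low level, had 13.5, 21.8, 16.5, 18.3 and 10.2 in HT1 to HT5 and 22.4, 22, 33.5, 30.6 and 30.9 in WT1 to WT5, without overlap between the groups (log2 fold change -0.78, SE 0.24, limma adjusted p = 0.47). Mmp24, a neuronal metalloprotease, was 2436 ± 89.5 (SD, n = 5) in HT mice against 2646 ± 158 (SD, n = 5) in WT mice (log2 fold change -0.12, SE 0.049, limma adjusted p = 0.51), and Timp3, an inhibitor bound to matrix, 2735 ± 413 (SD, n = 5) in HT mice against 2458 ± 244 (SD, n = 5) in WT mice (log2 fold change 0.15, SE 0.10, limma adjusted p = 0.62). None of the genes of these 5 lists passed the adjusted threshold.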

How the data were processed

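Poly-A RNA of the prefrontal cortex was sequenced from stranded libraries. The authors estimated transcript abundance with Salmon 1.1.0 against GRCm38 with GC bias correction, summed it to genes with tximport and divided it by DESeq2 1.30.1 size factors. What the authors deposited is thus a size-factor-scaled signal for each gene, here named the normalised count, in place of whole reads, and it is blind to changes in overall RNA content. Depth is unknown, precision comes from the spread between mice, and totals ran from 31106330 to 32106791. No gene had a total under 41.7, so an unstated filter on low genes came before deposit. Reads that fit several similar transcripts are split among them by Salmon's model.

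Symbols and positions came from GENCODE M21, in which 18205 of 18216 identifiers were found. Groups and replicate numbers came from the sample titles. Genes averaging 10 or more (16781 in all) were tested as log2(value + 1), a scale that understates changes of low genes, with limma 3.58.1 in R 4.3.3 (mean-variance trend, genotype alone in the model). P-values were two-sided and adjusted by Benjamini-Hochberg over all genes tested, with a threshold of 0.05. The fit was tested on simulated data. Levels between genes were compared per kilobase of annotated exon, counted over all annotated transcripts of a gene together. Repeat runs were counted in the longest complete coding transcript of each gene, and promoter windows came from RefSeq (GRCm38.p6). Python 3.11.15 with pandas 2.3.3 was used for the remaining computations.

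The genes named were, in each class, the 3 with the highest level per kilobase and the 3 with the smallest p, the listed chain pairs, the highest laminin of each family, and the 3 genes with the smallest p of each pathway list. The members and lists were chosen with earlier results of these data known. Tried as alternatives, 20 in all, were other pseudocounts (0.5, 10), another filter (none, a mean of 50), upper-quartile and quantile scaling, no trend, sample quality weights, a replicate block, each mouse left out in turn, and 3 mice left out together. The labels name no batches. The values of 1 chain and 1 marker are not reported here, although the counts, medians and sums include them.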

Additional observations from a re-analysis of the deposited data

Results flagged for a closer look

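In 7 of the 108 groups of 5 mice examined (54 chains in each genotype), 1 mouse lay apart from the other 4 of its group by a gap of more than 0.71 of the whole range. Chance flags about 1 in 20 groups, which is 5.4 groups here. All 7 were high values.

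Both chains of the most abundant type IV pair were high in WT1. Col4a1 was 6721 in WT1 and 5724 to 5866 in the other WT mice, and Col4a2 was 5115 against 4621 to 4758. Another type IV chain, Col4a3, was 61.6 in WT2 and 13.4 to 18.5 in the other WT mice. Col4a5, a type IV chain on chromosome X, was 445 in WT4 and 387 to 398 in the others.

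WT4 also had 93.4 for Col17a1, the hemidesmosome collagen, against 13.2 to 31.9 in the other WT mice. In HT2, the fibrillar chain Col11a2 was 1206 against 855 to 930 in the other HT mice, and Col28a1, a collagen of nerve basement membranes, was 96.9 against 58.4 to 68.1. What set these mice apart was not tested.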

How the results depend on the processing

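The log2 fold changes of Arid1b and the 3 chains with the smallest p in each class kept their direction under all 20 alternatives, and 0 chains passed the adjusted threshold in any. Arid1b stayed between -0.61 and -0.55. Col6a1, Col7a1 and Col26a1 had an unadjusted p under 0.05 in 20 of 20 alternatives and Lama5 in 10 of 20. The number of chains at an unadjusted p under 0.05 was 4 to 8 with 1 mouse left out, beside 6.45% to 10.9% of all genes. By direction, 2 to 7 were higher in HT, beside 3.37% to 5.76% of all genes, and 1 to 2 lower, beside 3.08% to 5.35%. Sample quality weights gave 5 higher, beside 4.42% of all genes, with 37 of 54 chains above 0 and medians of 0.032 for basement membrane and 0.046 for other chains. With HT2, HT5 and WT4 left out together, 2 chains were lower, beside 3.54% of all genes, and the median log2 fold change of basement membrane chains was -0.0019, the reverse of the value with all mice. The cause was not tested. The replicate block gave 8 chains at an unadjusted p under 0.05, 7 of them higher in HT, beside 8.99% and 4.79% of all genes. The numbers mark different mice, the correlation of same-numbered mice was 0.038 on average (-0.041 to 0.101), and 5 of 10 mice correlated best with their own number, so the paired fit carries only a shared number. All alternatives planned were run. Under upper-quartile and quantile scaling the median log2 fold change of all genes was 0.0072 and -0.0054. Col10a1, Col4a3, Col17a1 and Col2a1 are low, and their spread limits what can be seen.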
